A study of Drosophila melanogaster with 3 samples.

Results

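The genes described here are 10 members of the Hippo growth-control pathway of Drosophila melanogaster, looked at for the binding of the homeobox transcription factor caup, a protein of the Iroquois complex. They were picked by name for their place in the pathway: the core kinase cassette (hpo, sav, wts and mats), the upstream regulators ex and Mer, the cadherins ft and ds, and the nuclear effectors yki and sd. They are 10 of the 13945 protein-coding genes that the annotation places on the 6 chromosome arms. Caup carrying a C-terminal GFP was immunoprecipitated with an anti-GFP antibody from a stable transgenic line, and the DNA was sequenced (ChIP-seq). The material was whole embryos of both sexes, 0 to 24 h old, in 3 biological replicates of 1 group; no group without the fusion is part of the comparison. Whole embryos mix all tissues and all stages in that span, so a region bound in few cells and one bound weakly in many cannot be told apart.

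Hippo signalling limits organ size. The kinase Hippo, with its scaffold Salvador, activates the kinase Warts and its cofactor Mats. Warts phosphorylates the coactivator Yorkie and keeps it out of the nucleus, where it would drive growth genes with the DNA-binding protein Scalloped. Expanded and Merlin feed into the cassette from the apical membrane, and the giant cadherin Fat, with Dachsous as its ligand, acts on Warts and also on planar cell polarity.

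Each replicate list, and the list pooled from the 3 replicates, holds 30000 regions and so runs far into weak signal. The optimal set, kept for rank agreement between replicates, holds 6056 peaks. Each region has a summit and a signal value, the authors' enrichment statistic, which is comparable only within 1 list. In the optimal set its median was 333, between extremes of 209 and 6496. The lists hold no read counts, so depth is unknown. With 1 group and genes as the items described, no test between groups was possible, and counts are set beside the same counts over all genes or peaks.

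All 10 genes had at least 1 optimal summit in the gene body or within 5 kb of it, against 54.4% of protein-coding genes. That window grows with gene length, and its share was not taken over genes of like length. The only summit in the sav window lay 54 bp from the TSS of p53. With gene bodies alone, 5 of the 10 genes had a summit. The share of protein-coding genes with a summit in the gene body was not taken. For 7 of the 10 genes, a summit lay within 1 kb of a transcription start site (TSS) of the gene itself. These were hpo, mats, ex, Mer, ds, yki and sd, and the share over protein-coding genes was 27.6%. Sav, wts and ft had none. The share differed with gene length: it was 24.7% in the tenth of coding genes that holds mats and 47.1% in the tenth with the longest, which holds wts, ex, ft, ds and sd. Counting only genes whose own TSS is the nearest one left 6 of the 10, without yki, against 20.5% of protein-coding genes.

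There were 19 optimal summits in all. Of these, 8 lay within 1 kb of a TSS of the member, 4 within 1 kb of another gene's TSS only, and 7 over 1 kb from any TSS. The 12 near a TSS of any gene make 63.2%, against 61.1% of all optimal summits. Their median signal value was 343, close to the 333 of all optimal peaks, and the extremes were 234 and 869, at ranks 5163 and 547 of the 6056 peaks.

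**Figure D1:**
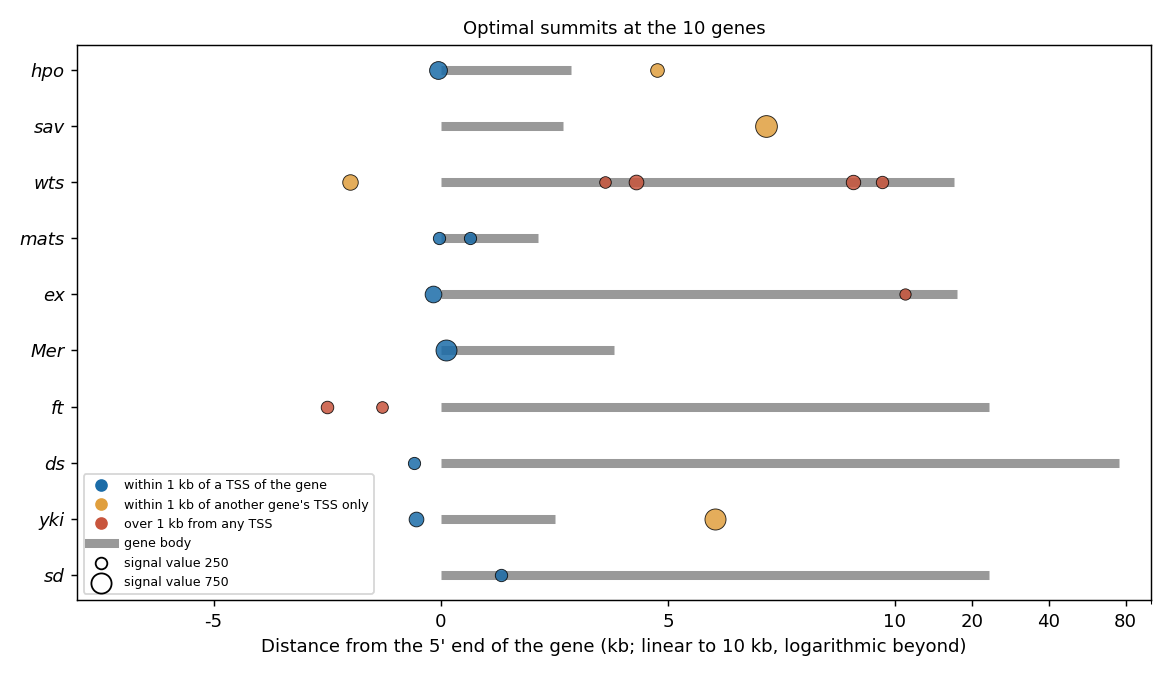
Position of the 19 optimal summits (circles, area proportional to signal value) along the 10 genes, as distance in kb from the 5′ end of each gene. Grey bars are gene bodies. The axis is linear to 10 kb and logarithmic beyond. Hpo, sav, ft, ds and yki have no summit inside the gene, and wts has 4.

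The replicates found these summits to different degrees. Every one of the 19 lay inside a region of each replicate's full list. The share of all optimal peaks that did so was not taken, so this count does not set the 19 apart. A place in the optimal set does not require it: the optimal summit at Mob4 lay in no region of replicate 2. Taking as many top regions per replicate as there are optimal peaks, 11 summits (57.9%) lay in the top regions of all 3, against 62.7% of all optimal peaks. A further 6 lay in the top regions of 2 replicates and 2 in those of 1.

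The cadherins come first in the pathway. Fat is the receptor-like cadherin (ft, FBgn0001075, chr2L:4198404-4221796, minus strand). It had 2 optimal summits, both upstream in intergenic sequence, 1287 bp and 2497 bp from its TSS. The nearer had a signal value of 251 (rank 4675), with ranks of 4376, 3675 and 6367 in replicates 1, 2 and 3. The farther had 289 (rank 3753), with ranks of 5512, 10677 and 2072. Each therefore missed the top regions of 1 replicate, replicate 3 for the nearer and replicate 2 for the farther.

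At the ft start itself the pooled list held a single weak region, 56 bp inside the gene, with a signal value of 86.1 (rank 16830). Its ranks in replicates 1, 2 and 3 were 23801, 27490 and 10371, far below the top regions in every replicate. Dachsous, the ligand of Fat (ds, FBgn0284247, chr2L:640013-714983, minus strand), is the longest of the 10 genes at 75.0 kb and had 1 optimal summit. It lay 591 bp upstream of the TSS with a signal value of 276 (rank 4049). Its ranks were 4364, 7197 and 3222, so replicate 2 placed it outside its top regions.

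No optimal summit lay inside either cadherin gene, and none lay inside the short genes hpo, sav and yki. Of protein-coding genes of 20 kb or longer, a length picked after the values were seen, 39.7% had none inside the gene. The pooled list held 3 regions inside ft and 6 inside ds, none among the top regions of any replicate. The strongest upstream regions of both genes are shown as the cadherin sites that passed into the optimal set, read from the RefSeq release 6 genome on the plus strand, 100 bp to each side of the summit. Capitals mark a match to one of 9 searched motifs, here GAGAG, a short form of the GAGA factor sequence, in ds. The ft stretch held none.
ft, chr2L:4224193-4224393: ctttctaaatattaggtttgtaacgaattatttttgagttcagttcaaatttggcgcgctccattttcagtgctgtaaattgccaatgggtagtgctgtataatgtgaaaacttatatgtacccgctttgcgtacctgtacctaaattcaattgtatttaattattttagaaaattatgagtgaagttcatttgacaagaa
ds, chr2L:715474-715674: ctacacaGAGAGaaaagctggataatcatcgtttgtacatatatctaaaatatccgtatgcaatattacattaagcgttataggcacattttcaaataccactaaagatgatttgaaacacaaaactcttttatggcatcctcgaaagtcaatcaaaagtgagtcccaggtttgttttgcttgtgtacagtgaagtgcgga

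Both stretches were rich in A and T: G and C made up 31.8% of the ft stretch and 35.3% of the ds stretch, against a median of 37.8% in 201 bp windows over all optimal summits.

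The upstream regulators had the first and the third highest signal value among the own-promoter summits of the 10 genes. Merlin is the FERM-domain protein related to the human tumour suppressor NF2 (Mer, FBgn0086384, chrX:19689697-19693500, minus strand). Its single summit lay in an intron 115 bp inside the gene, with a signal value of 809 (rank 639). The signal value was 325, 227 and 258 in replicates 1, 2 and 3, at ranks 439, 552 and 1110. It was the own-promoter summit of best rank in the pooled data, and each replicate had it far inside its top regions.

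Expanded is a second FERM-domain protein and also a known target of Yorkie (ex, FBgn0004583, chr2L:431227-448701, plus strand). Its stronger summit lay 161 bp upstream of the TSS with a signal value of 513 (rank 1478). The signal value was 246, 123 and 156 in replicates 1, 2 and 3, at ranks 768, 1664 and 2639. The second, in an intron 10905 bp inside the gene, was the weakest of the 19 at 234 (rank 5163), and only replicate 1 had it in its top regions (ranks 3924, 9688 and 6304). A further pooled region 39 bp inside ex, with a signal value of 177, fell outside the optimal set.

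The summit regions of Mer and ex are shown because they were the strongest at the start of an upstream gene. Bases annotated as untranslated exon were left out, which shortens Mer. The capitals in ex are 2 matches to GAGAG, read on the minus strand as CTCTC; Mer held no searched motif, and G and C made up 53.7% of its whole 201 bp window.
Mer, chrX:19693285-19693435: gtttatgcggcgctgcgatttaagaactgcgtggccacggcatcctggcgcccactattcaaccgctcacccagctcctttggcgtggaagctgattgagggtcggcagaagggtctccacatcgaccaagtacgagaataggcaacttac
ex, chr2L:430966-431166: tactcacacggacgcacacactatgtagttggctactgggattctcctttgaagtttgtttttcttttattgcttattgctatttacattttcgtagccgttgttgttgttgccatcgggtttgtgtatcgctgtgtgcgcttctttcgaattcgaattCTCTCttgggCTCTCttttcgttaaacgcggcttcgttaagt

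In the core cassette, the gene for the kinase that phosphorylates Yorkie is the longest (wts, FBgn0011739, chr3R:30789625-30806619, minus strand). It spans 17.0 kb, against 2.86 kb for hpo, 2.70 kb for sav and 2.14 kb for mats. Wts had 5 optimal summits, the most of the 10 genes, and 4 of them lay in introns between 3609 bp and 9718 bp inside the gene. Its partners are too short to hold a summit that deep, so this is no contrast with them. These 4 fell in 2 pairs.

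In the pair nearer the start, the summit at 4293 bp had a signal value of 398 (rank 2252), with ranks of 2340, 1963 and 2923 in replicates 1, 2 and 3. The one at 3609 bp had 248 (rank 4757), and only replicate 3 had it in its top regions (ranks 7428, 7422 and 3597). In the other pair, the summit at 9083 bp had a signal value of 383 and nearly equal ranks of 2494, 2446 and 2431. Its neighbour at 9718 bp had 282, with ranks of 2782, 2943 and 7606. Thus 1 summit of each pair was in the top regions of every replicate and the other was not.

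At the wts start the data held only weaker regions. The strongest pooled region within 1 kb was 698 bp inside the gene with a signal value of 187 (rank 6923), and its ranks in replicates 1, 2 and 3 were 5867, 11787 and 6423, so replicate 1 alone had it in its top regions. The region at the start itself, 3 bp upstream, had 99.8 (rank 14305) and was not found in replicate 3. The strongest summit in the wts window, at 443 (rank 1872), was that of a neighbour: it lay 7 bp from the TSS of cindr, which encodes a cytoskeletal adaptor protein, and 2005 bp from that of wts.

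Salvador, the scaffold that joins Hippo to Warts, had no own-promoter summit (sav, FBgn0053193, chr3R:23058609-23061304, minus strand). A pooled region 57 bp upstream of its TSS had a signal value of 199 and rank 6390, just below the 6056 that were kept. The replicates did not place it alike: the signal value was 42.0, 50.0 and 116 in replicates 1, 2 and 3, at ranks 13146, 6781 and 4199. Only replicate 3 had it in its top regions. The single optimal summit in the sav window was the strongest of all 19, with a signal value of 869 (rank 547), but it lay 54 bp from the TSS of p53, the tumour suppressor gene, and 7168 bp from that of sav. Its ranks of 434, 577 and 700 made it strong in every replicate.

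Mats, the Mob-family cofactor of Warts, had 2 own-promoter summits of nearly the same signal value (mats, FBgn0038965, chr3R:22421161-22423302, plus strand). The first, 46 bp upstream of the TSS, had 278, and the second, in an intron 475 bp downstream of the nearer of its 2 TSSs, had 277. They differed between replicates. The first ranked 3256, 8855 and 3416 in replicates 1, 2 and 3 and the second 6159, 3349 and 4510, so replicate 2 favoured the intronic one and the other replicates the one upstream. Both also lay within 1 kb of a TSS of Nop56, a gene for a nucleolar protein of ribosome biogenesis.

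The stretches below show what lay under the core cassette summits. For sav and wts the strongest summit of the window belongs to the neighbour's start; for wts the strongest summit inside the gene is added, chosen after the values were seen. In the sav window, beside p53, capitals mark 2 copies of TATCGATA, the DNA replication-related element (DRE), each overlapping a GATAAG in the run TATCGATAAG. In the wts intron they mark GGAATG, the core sequence bound by Scalloped and the related TEAD proteins. At cindr they mark GAGAG, read as CTCTC; the stretch ends 8 bp short of the summit because the bases beyond are untranslated exon. The mats stretch held none of the 9; the matches given for mats with the motif counts lie within 100 bp of the summit but outside this stretch.
sav, chr3R:23054083-23054236: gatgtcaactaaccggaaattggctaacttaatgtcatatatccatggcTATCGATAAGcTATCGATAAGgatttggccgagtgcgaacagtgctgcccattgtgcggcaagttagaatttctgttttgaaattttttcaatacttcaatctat
wts, chr3R:30808524-30808616: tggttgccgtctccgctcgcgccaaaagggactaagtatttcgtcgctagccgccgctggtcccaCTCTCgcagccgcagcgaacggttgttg
wts, chr3R:30802226-30802426: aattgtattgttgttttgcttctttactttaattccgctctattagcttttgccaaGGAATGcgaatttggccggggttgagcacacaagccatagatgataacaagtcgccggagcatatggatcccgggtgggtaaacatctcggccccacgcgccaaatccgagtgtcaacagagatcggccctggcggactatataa
mats, chr3R:22421069-22421160: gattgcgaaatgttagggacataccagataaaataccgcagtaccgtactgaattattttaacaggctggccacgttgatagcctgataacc

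Hippo itself gave the clearest core-cassette promoter (hpo, FBgn0261456, chr2R:19493996-19496856, minus strand). A summit 54 bp upstream of its only TSS had a signal value of 582 (rank 1197). The signal value was 221, 129 and 233 in replicates 1, 2 and 3, at ranks 936, 1536 and 1337, so all 3 replicates had it well inside their top regions. It lay within 1 kb of the start of CG15120 too, but nearer to hpo. The second summit of the window, at 343 (rank 2884), lay 16 bp from the TSS of Rep, which encodes a Rab escort protein, and beyond the 3′ end of hpo.

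Of the nuclear effectors, the coactivator gene yki (FBgn0034970, chr2R:24065975-24068485, minus strand) had an own-promoter summit only by distance. The summit lay 544 bp upstream of the yki TSS and 21 bp from that of Gpat4, which encodes a glycerol-phosphate acyltransferase, in a 5′ untranslated exon of a neighbouring gene. Its signal value was 399 (rank 2248), with 217, 161 and 172 in replicates 1, 2 and 3 at ranks 976, 1035 and 2259. The other summit in the window was stronger, at 815 (rank 635), and lay 7 bp from the TSS of the ribosomal protein gene RpL39, 6047 bp from that of yki. No region of the pooled list lay inside yki.

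Scalloped, the TEAD protein that brings Yorkie to DNA (sd, FBgn0003345, chrX:15804370-15827682, plus strand), has 7 annotated TSSs. Its single optimal summit lay 179 bp inside from one of them, in a 5′ untranslated exon, with a signal value of 281 (rank 3937). The signal value was 78.4, 75.2 and 117 in replicates 1, 2 and 3, at ranks 5884, 3696 and 4159, just inside the top regions of replicate 1. Within 1 kb of its starts there were 8 weaker pooled regions, of signal values from 60.2 to 145. That was more than at any other of the 10 genes, but those have 1 or 2 TSSs each. More sequence was therefore searched at sd.

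To place each promoter on 1 scale, the strongest region within 1 kb of a TSS was taken in each replicate's full list and ranked among all 13945 protein-coding genes. The percentile is the share of those genes whose strongest region ranked lower or that had none. Mer stood highest at 95.2 ± 1.86 (SD, n = 3), then hpo at 91.8 ± 1.83, yki at 91.3 ± 3.23 and ex at 89.9 ± 4.44. The yki value rests on regions shared with Gpat4. Mer was the highest of the 10 genes in every replicate, while hpo, yki and ex changed places between replicates. Mats followed at 81.7 ± 0.601, and its range, 81.3 to 82.4, lay below that of ex (85.8 to 94.6) and above that of sd (73.3 to 79.9).

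The rest of the order was looser. Sd had a mean percentile of 77.6 ± 3.77 (SD, n = 3), ds 76.2 ± 7.19, sav 68.2 ± 12.4, wts 68.1 ± 6.72 and ft 51.0 ± 11.0. Each neighbouring pair among these 5 overlapped. Sav spread most, from 55.0 in replicate 1 to 79.6 in replicate 3. Ft was the lowest in every replicate, at 44.0, 45.2 and 63.7, and replicate 3 gave the highest percentile for ft, ds, sav and wts.

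**Figure D2:**
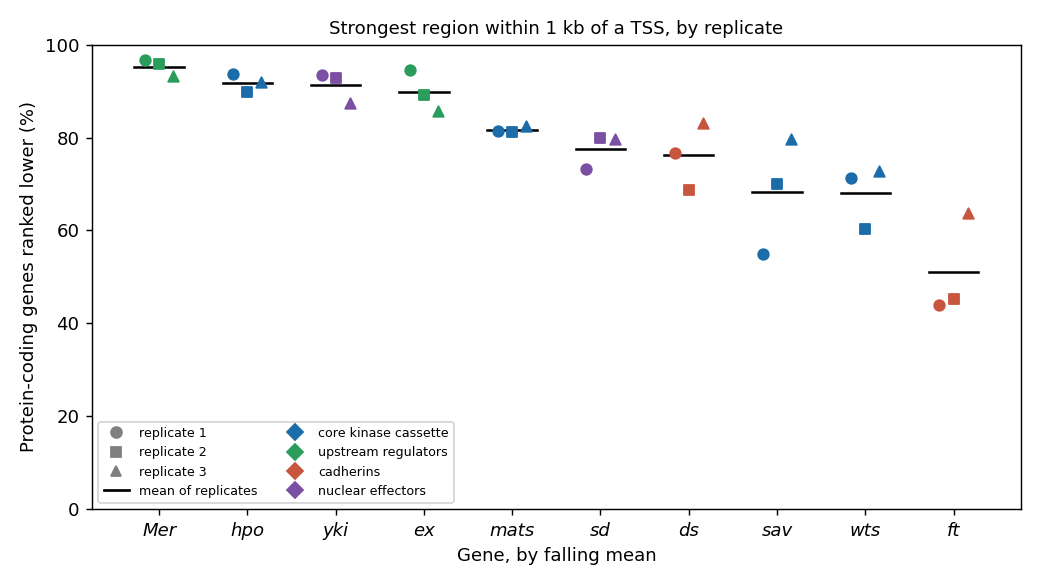
Percentile of the strongest region within 1 kb of a TSS of each gene among 13945 protein-coding genes, in each of 3 replicates (symbols) with their mean (line). Mer, hpo, yki and ex lie between 85.8 and 96.8, and ft between 44.0 and 63.7.

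The role groups were then set side by side. The core cassette had 10 summits in 64.7 kb of window, or 1.55 per 10 kb. The upstream regulators had 0.727 per 10 kb (3 summits in 41.3 kb), the nuclear effectors 0.655 (3 in 45.8 kb) and the cadherins 0.253 (3 in 118 kb). Taken window by window over all protein-coding genes, the median was 0.518 per 10 kb, and 45.6% of those windows held no summit. The group values pool windows of unlike length, and no density was taken over genes of like length. They therefore cannot be read as above or below typical from that median. In the optimal set the cadherins were the sparsest of the groups and the core cassette the densest. With all regions of the pooled list the order at the top turned: the upstream regulators had 4.60 per 10 kb and the core cassette 4.48, then the nuclear effectors 3.71 and the cadherins 1.52. Of the 3 cadherin summits, 0 were in the top regions of both other replicates when replicate 1 was left out, 2 without replicate 2 and 1 without replicate 3, against 7 of the 10 core cassette summits each time.

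The top regions of single replicates placed the cadherins last each time and the core cassette first in 2 of 3. The core cassette had 1.39, 1.24 and 1.55 summits per 10 kb in replicates 1, 2 and 3, and the cadherins 0.253, 0.0845 and 0.169. The nuclear effectors had 1.09, 1.31 and 0.873, above the core cassette in replicate 2. The upstream regulators had 0.727, 0.727 and 0.485.

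**Figure D3:**
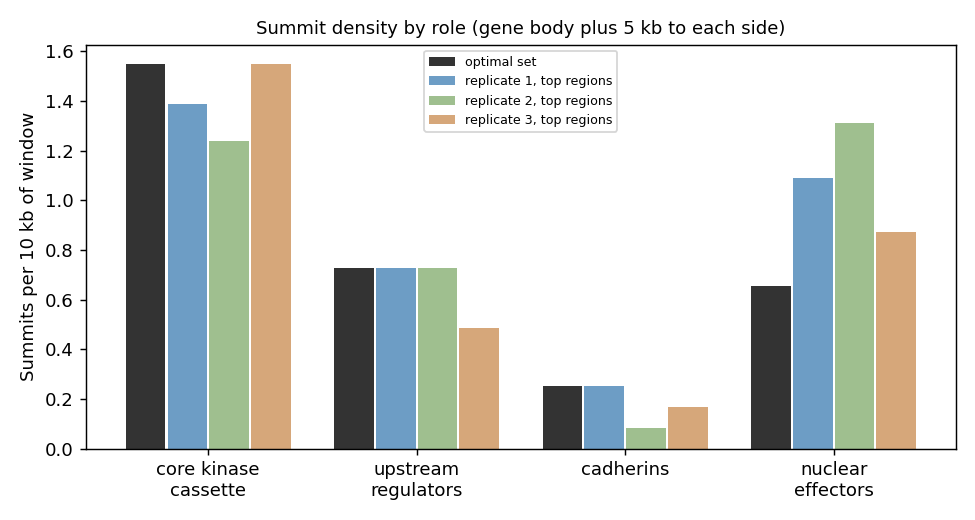
Summits per 10 kb of window (gene body plus 5 kb to each side) for the 4 role groups, in the optimal set and in an equal number of top regions of each replicate. The core cassette runs from 1.24 to 1.55 and the cadherins from 0.0845 to 0.253.

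The contrast moved with how the window was drawn. Inside the gene bodies alone the core cassette had 5 summits (2.02 per 10 kb), 4 of them in wts and 1 in mats, against 2 for the upstream regulators (0.940), 1 for the nuclear effectors (0.387) and 0 for the cadherins. Counting only summits whose nearest TSS is the member's left 5 for the core cassette (0.773 per 10 kb of window), 2 for the upstream regulators (0.485), 3 for the cadherins (0.253) and 1 for the nuclear effectors (0.218), which were then the sparsest. The short genes hpo, sav, mats and yki have windows made mostly of flanks, and 3 of their 7 summits lay at the start of a neighbour only. By promoter percentile the groups overlapped: the core cassette held the second highest gene and the second lowest.

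Motifs were sought on both strands within 100 bp of the 19 summits, as a description. GGAATG lay at 3 (15.8%), in the wts intron, at RpL39 in the yki window and at sd, against 6.61% of all optimal summits. TATCGATA lay at 3 (15.8%), at hpo, at p53 in the sav window and at RpL39, against 3.62%; in these windows GATAAG was found too, and it can overlap TATCGATA. The Iroquois palindrome ACANNTGT lay at 3 (15.8%, against 11.5%), at mats, in a wts intron and at Rep. ACACTG lay at 3 (15.8%, against 18.3%), GATAAG at 4 (21.1%, against 13.2%), GAGAG at 4 (21.1%, against 25.9%), TATAAA at 3 (15.8%, against 30.5%), and CAGCTG, an E-box, and GGTCACAC, a core promoter sequence, at 1 each (5.26%, against 10.7% and 2.81%). With 19 windows, a single summit shifts any of these shares by 5.26 points. The median G and C content of the windows was 40.8% at the 19 summits, from 30.3% to 54.7%.

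A list of 43 other pathway genes gave 21 with an optimal summit within 1 kb of a TSS, or 48.8%. The 42 of them that code for protein gave 20, or 47.6%, against 27.6% of all protein-coding genes. They are long genes, with a median of 12.3 kb against 2.17 kb over all, and 20 of them are in the tenth of coding genes with the longest. Over coding genes of like length, taken by the tenth each of the 42 falls in, the mean share of coding genes with such a summit was 41.5%. By group that share was 46.4% for the 6 coding targets, 43.9% for the nuclear partners, 43.7% for the apical and polarity regulators, 38.6% for the kinases and regulators of the cassette and 37.4% for the Fat-Dachsous branch. Genes reported as targets of Yorkie had one most often, 6 of 7: Diap1, an inhibitor of cell death (signal value 956, ranks 441, 363 and 521 in replicates 1, 2 and 3), CycE, the S-phase cyclin (729, ranks 1062, 644 and 844), and dlp, a glypican (395, ranks 2051, 1646 and 2664), had the highest values. The others were dally (364), the microRNA gene mir-ban (233) and Myc (213), and E2f1 had none. The Myc summit lay in no region of replicate 2 and in the top regions of replicate 1 alone (ranks 2196 and 6350 in replicates 1 and 3).

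Apical and polarity regulators had 7 of 10. Par-6, part of the apical polarity complex, reached 786 (ranks 563, 643 and 1000), but the summit was nearer to CG8188, 78 bp against 406 bp. The scaffold gene dlg1 reached 549.6 (ranks 1032, 1505 and 1635) and the kinase gene aPKC 542 (ranks 2074, 1304 and 1179). Crb, which recruits Expanded to the membrane, reached 426 and kibra, a partner of Merlin and Expanded, 308. Baz, l(2)gl and Patj had none.

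Of the kinases and regulators of the cassette, 4 of 13 had an own-promoter summit. The highest was at msn, a kinase gene (1164, ranks 201, 326 and 499). That summit lay 17 bp from the TSS of the ribosomal protein gene RpL8 and 899 bp from that of msn. Hppy, another kinase gene, reached 394 and Rassf, which opposes Hippo activity, 251. Mob4 had the weakest (215), nearer to Rab2 and in no region of replicate 2. Tao, the kinase that activates Hippo, had no optimal summit in its window, and neither had Slmap or Git. Of the windows of all protein-coding genes, 45.6% held none. Across the 43 other pathway genes, 34 had a summit in the window. That window grows with gene length and many of these genes are long, and no window share was taken over genes of like length.

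The Fat-Dachsous branch had 2 of 7, app, a palmitoyltransferase that acts on Fat signalling (793, ranks 719, 617 and 657), and dco, the kinase that phosphorylates Fat (431, ranks 1202, 5059 and 2348). Dachs, the myosin that links Fat to Warts and is also written d, had none at its start, and neither fj, which modifies both cadherins, nor lft had one in the window. Nuclear partners had 2 of 6: mask, a cofactor of Yorkie (902, ranks 405, 469 and 772), and Tgi, a Scalloped corepressor (237, ranks 5054, 5837 and 4968). Vg, the wing partner of Scalloped, had no optimal summit in its window, and neither had Wbp2 or tsh. These groups hold 6 to 13 genes of unequal length, and no test was made between them.

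**Figure D4:**
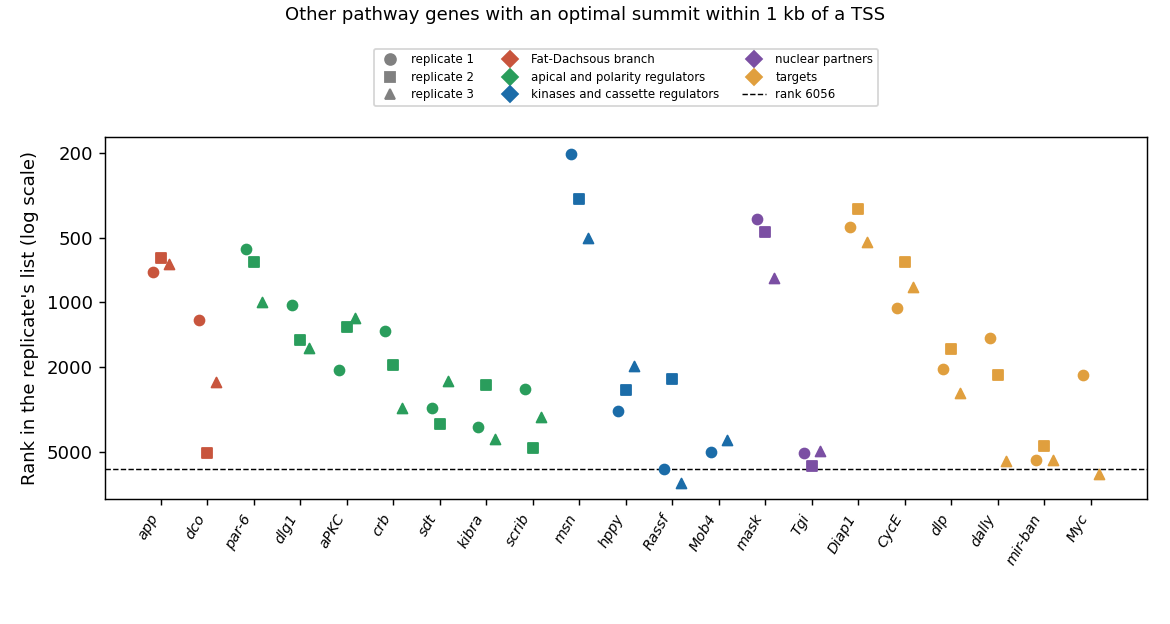
Rank, in each replicate's list of 30000 regions, of the region holding the strongest optimal summit within 1 kb of a TSS, for the 21 other pathway genes that have one (rank 1 is strongest, log scale). The dashed line is rank 6056, the size of the optimal set; Myc and Mob4 have no region in replicate 2.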

How the data were processed

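The authors deposited lists of regions on dm6 and dm3. Per the text notes deposited with them, a control alignment went into each replicate's list, the pooled list came from the alignments of all 3 replicates, and the optimal set was selected by irreproducible discovery rate. Aligner, caller and threshold: not given in the sources used here. The signal value deposited by the authors has no stated scale, and was used only to rank regions within a list. Its 6056 optimal regions are the top 6056 of the pooled list. The dm3 lists were not used.

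Genes and TSSs are from Ensembl release 115, without transposable elements and pseudogenes; 99.8% of its start codons read ATG in the RefSeq release 6 sequence. A summit was assigned within 1 kb of a TSS or in the gene body plus 5 kb, with Python 3.11.15. The window counts were tested on planted summits. All 10 genes and their optimal summits are named, and of other genes up to 3 per role with the highest promoter signal value; the remaining names were added after their values were seen. The genes and lists were chosen with earlier results of these data known. Alternatives are given in the closing section. Replicates are biological per the labels.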

Additional observations from a re-analysis of the deposited data

How the results depend on the processing

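No paired analysis was possible because the study has 1 group. Of 117 alternative counts, 82 stayed within 1.5 times the count given and 35 moved further. The gene counts below have no share over all protein-coding genes at the same setting. They show how the counts moved, not how these genes stand against others. With the 3028 strongest peaks, 4 genes had an own-promoter summit, hpo, ex, Mer and yki, and 6 a summit in the window; there were then 10 summits, 6 of them in the core cassette and 0 at the cadherins. With gene bodies alone, 5 genes had a summit, and there were 8 summits: 5 in the core cassette, 1 at the nuclear effectors and 0 at the cadherins. With 10 kb to each side there were 29: 16, 5 for the upstream regulators and 5 for the nuclear effectors. Counting only the nearest TSS gave 11 summits, 5 in the core cassette and 1 at the nuclear effectors. Peaks in the top regions of all 3 replicates left 11 summits, 6 in the core cassette and 0 at the cadherins. All regions of the pooled list gave 83, with 29 for the core cassette, 19 for the upstream regulators, 18 for the cadherins and 17 for the nuclear effectors. With top regions of single replicates, the cadherins had 1 in replicate 2, and the nuclear effectors 5 in replicate 1 and 6 in replicate 2. Without replicate 1, 2 or 3 in turn, keeping peaks in the top regions of both others, there were 12 to 14 summits, 7 in the core cassette each time, 2 at the upstream regulators, 3 at the nuclear effectors and 0 to 2 at the cadherins. The cadherins had 0 without replicate 1, 1 without replicate 3 and 2 without replicate 2. The own-promoter count was 5 to 7 genes and the window count 8 to 10, and the 43 other genes gave 14 to 23 in all alternatives run for them. Within 200 bp of the summits ACANNTGT lay at 5 (26.3%, against 21.5% of all optimal summits) and TATAAA at 6 (31.6%, against 48.9%). GGTCACAC and CAGCTG lay at 2 each (10.5%, against 4.67% and 20.9%). The wider window itself holds more sequence. The causes of the other shifts were not tested. Depth is unknown, and with 3 replicates a summit near rank 6056 can fall on either side.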

Other observations

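Several other pathway genes carried stronger summits away from their own start than at it; these were singled out after their values were seen. Baz, which encodes an apical polarity scaffold, had 4 optimal summits in its window and none within 1 kb of a TSS of its own, and the strongest reached a signal value of 1375 (rank 240) at 18693 bp from its nearest start. Hth, a homeodomain partner of Yorkie in the eye, had 7, the strongest 16503 bp from its start (656). Both were in the top regions of all 3 replicates. At E2f1, a cell-cycle transcription factor gene with 6 summits, the strongest (819) lay 26 bp from the TSS of InR, the insulin receptor gene.

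At Patj the only summit of the window (594) was nearest to the TSS of dlt, and at jub, which encodes an inhibitor of Warts, the only one (418) lay 55 bp from the TSS of Clic.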
